A study of Mus musculus with 7 samples.

Results

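Kinesins are motor proteins that walk along microtubules or remove subunits from microtubule ends, using the energy of ATP. Mitotic kinesins build the bipolar spindle, align chromosomes and organise the midzone from which a dividing cell is cut apart, transport kinesins carry vesicles and organelles, and ciliary kinesins move intraflagellar cargo or shape the axoneme. In the testis, spermatogonia divide by mitosis, and a preleptotene spermatocyte replicates its DNA once more and then enters meiotic prophase without dividing. The family was taken as every gene whose GENCODE vM21 symbol has the form of *Kif* or *Kifc* followed by a number and lower-case letters. The annotation has 44 such symbols, of which *Kif16bos*, an antisense gene, was not analysed here. The tables held 43 genes of the family among 21928, and 38 of them, among 13630 genes, passed a filter of a TPM (a level corrected for transcript length and depth) of at least 1 in at least 3 of 7 libraries. By their known roles, 13 of the 38 were mitotic, 14 were transport, 8 were ciliary and 3 were placed elsewhere. One of the latter, *Kif1bp*, encodes a binding partner of kinesins and not a motor, although its symbol fits the rule.

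Whole-testis RNA was sequenced from 4 wild-type and 3 *Meioc*-null C57BL/6N pups, 1 library per pup from 1.5 testes. MEIOC is a germ cell protein required for spermatocytes to progress through early meiosis, and the comparison asked which transcripts depended on it around meiotic entry. The null pups carried the *Meioc* tm1.1Dpc allele. All 7 pups, the controls included, received WIN 18,446, which blocks retinoic acid synthesis, at 0.1 mg/g daily from P2 to P8 and then retinoic acid at 0.0125 mg/g on P9, so that spermatogenesis restarted in step. Testes were collected 6.75 days later, when they were rich in preleptotene spermatocytes, and the somatic cells of the testis remained in each sample. As whole tissue was sequenced, fewer cells of a type and less RNA per cell cannot be told apart.

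The libraries held 12537852 to 20552702 estimated counts, at which 3 counts equal 0.151 to 0.236 CPM (counts scaled to the size of the library). *Meioc* itself stood at 466, 658, 662 and 718 CPM in wild-type replicates 1 to 4 and at 399, 299 and 412 CPM in null replicates 1 to 3. These gene totals do not show which part of the gene the reads came from and so do not test the deletion. Summed over *Ddx4* and *Dazl*, germ cell markers ranged from 1232 to 1395 CPM in wild type and from 836 to 971 CPM in the null, and 1 of these 2 genes was higher by the test used below. All 5 markers of leptotene and zygotene spermatocytes were higher, with sums of 1039 to 1369 against 493 to 663 CPM, and 1 of 4 markers of undifferentiated spermatogonia was lower, with sums of 105 to 125 against 141 to 228 CPM. Of 5 markers of differentiating spermatogonia, 1 was higher, with sums of 364 to 450.5 against 322 to 348 CPM. None of 6 Sertoli cell markers passed, although 2 had an unadjusted p under 0.05. Of all 13630 genes, 2373 higher and 1760 lower in wild type had such a p. The Sertoli sums overlapped at 1427 to 1592 and 1318 to 1478 CPM. Of 8 markers of pachytene and later cells, 1, *Piwil1*, passed the filter, at 2.31 to 4.26 against 4.28 to 6.86 CPM, and it was not called. Sums over Leydig, peritubular myoid and endothelial cell and macrophage markers overlapped between the genotypes, and *Des*, lower in wild type, was the single one of them called. The germ cell markers therefore moved with genotype beside the kinesin values below, and their part in those values was not tested.

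The 4 kinesin genes that were higher in wild type were all mitotic, *Kif23*, *Kif15*, *Kif18a* and *Kif4*, and the 2 that were lower were both transport motors, *Kif5c* and *Kif21a*. Fold changes are given as wild type over *Meioc*-null throughout, so that a gene that rose was higher in wild type and one that fell was lower. A gene is called where edgeR's quasi-likelihood test gave a Benjamini-Hochberg adjusted p under 0.05 over all 13630 genes. These 6 calls made up 15.8% of the 38 kinesin genes, against 11.1% of all genes called. The 4 of 13 mitotic genes called higher stand beside 7.77% of all genes called higher, and the 2 of 14 transport genes called lower stand beside 3.33% of all genes called lower. No ciliary gene and none of the remaining 3 genes passed. The median log2 fold change was 0.31 over the mitotic class, -0.21 over the transport class and -0.10 over the ciliary class, beside -0.0065 over all genes tested. DESeq2, which called 17.1% of all genes, called 8 kinesin genes, the same 6 and in addition *Kif11* and *Kif1b*, both higher in wild type. The directions of the 6 calls were the same in every fit that left out 1 library, but the count of kinesin calls was not. It was 14 without wild-type replicate 1 and 7 without null replicate 1, and 1 without wild-type replicate 2, 3 or 4 or null replicate 2. Without null replicate 3 it was 0, with 13 kinesin genes at an unadjusted p under 0.05 by edgeR. The share of all genes at such a p was not counted in that fit. The count of calls over all 13630 genes moved in the same way, to 2172 and 2112 without wild-type or null replicate 1. It was 296, 275 and 542 without wild-type replicates 2, 3 and 4, and 353 and 131 without null replicates 2 and 3. Of the 1513 calls over all genes, 70.0% were higher in wild type, and this share was 47.5% when libraries were scaled by size only, a setting in which the same 6 kinesin genes were called.

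**Figure D1:**
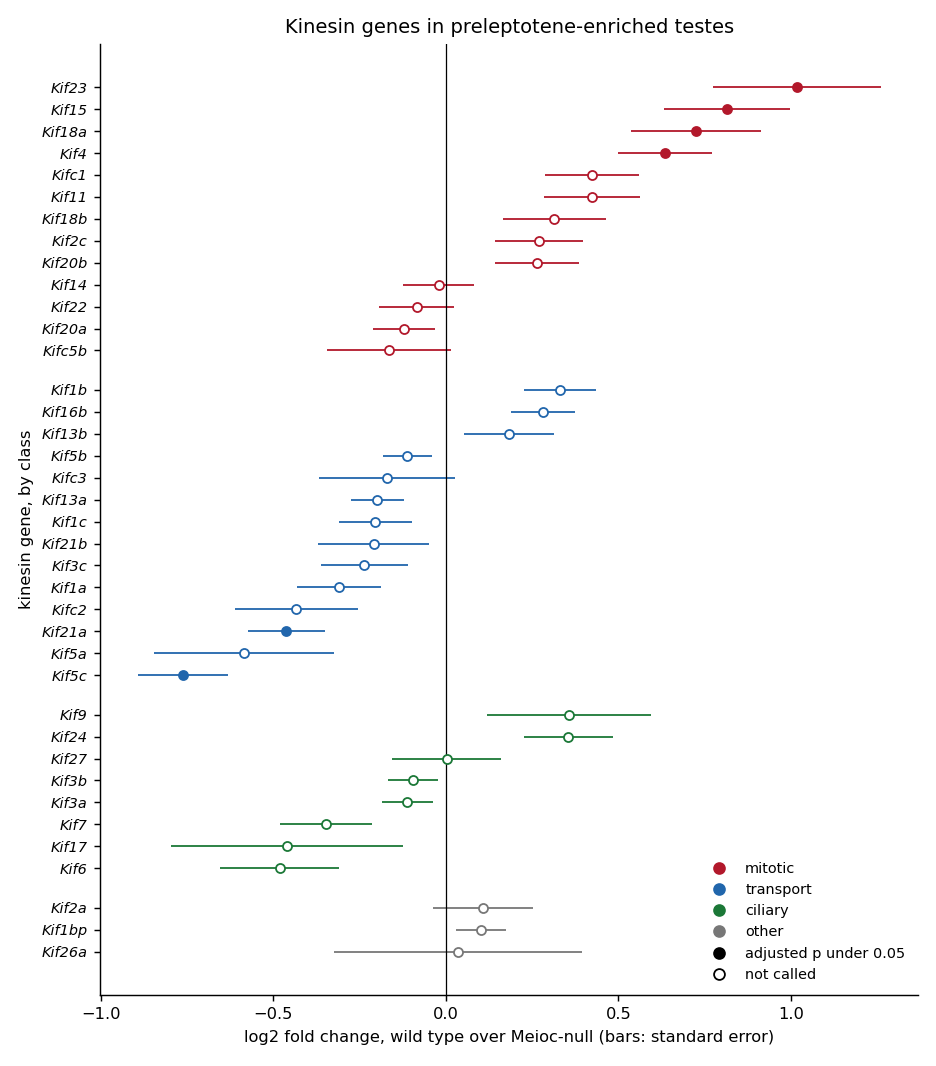
Log2 fold change (wild type over *Meioc*-null, x axis) of the 38 kinesin genes by class, with bars for the standard error and filled points for an adjusted p under 0.05. The filled points on the right, *Kif23*, *Kif15*, *Kif18a* and *Kif4*, are mitotic, and those on the left, *Kif21a* and *Kif5c*, are transport genes.

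The promoters of mitotic genes are known for short elements through which transcription follows the cell cycle, among them the cell cycle genes homology region, the CCAAT box and E2F sites. Promoter windows of 300 bases (250 before and 50 after the start, RefSeq, GRCm38.p6) were found for 30 of the 38 genes and searched on both strands. These 30 genes had 34 windows, and all 27025 genes with a window had 32851. Members are counted per gene below, whereas shares of all windows are per window, so the units differ. The letters of the homology region, TTTGAA or TTTAAA, were in the window of 11 of 12 mitotic genes, 1 of 8 transport genes and 1 of 8 ciliary genes, and in 27.6% of all 32851 windows. CCAAT was in 8 of 12, 1 of 8 and 5 of 8, and in 37.4% of all windows. An E2F site (TTTCCCGC, TTTGGCGC, TTTCGCGC or TTTGCCGC) was in 2 of 12 mitotic genes, *Kif15* and *Kif18a*, in no transport or ciliary gene, and in 2.26% of all windows. The E-box CACGTG was in 0 of 12, 1 of 8 and 0 of 8 and in 7.15% of all windows, and the RFX X-box of ciliary genes was in none of the 30 genes and in 0.250% of all windows. Among the words searched, none of the matches in the stretches shown here overlap each other.

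The stretches next to the start are shown for 3 genes that rose, 2 mitotic genes that were not called and the 2 transport genes that fell, so that called and uncalled genes can be set side by side. Capitals mark matches to the homology region, the CCAAT box or an E2F site on either strand, and each sequence reads towards the gene. They are *Kif23* (chr9:61946792-61946899, minus strand), *Kif15* (chr9:122950981-122951067, plus strand), *Kif18a* (chr2:109280638-109280737, plus strand), *Kif11* (chr19:37376282-37376381, plus strand), *Kif20b* (chr19:34922258-34922376, plus strand), *Kif5c* (chr2:49619186-49619285, plus strand) and *Kif21a* (chr15:91049952-91050051, minus strand).
Kif23: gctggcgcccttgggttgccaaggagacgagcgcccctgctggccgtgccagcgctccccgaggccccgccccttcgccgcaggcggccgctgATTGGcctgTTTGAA
Kif15: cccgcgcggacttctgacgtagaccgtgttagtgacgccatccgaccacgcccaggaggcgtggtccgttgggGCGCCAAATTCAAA
Kif18a: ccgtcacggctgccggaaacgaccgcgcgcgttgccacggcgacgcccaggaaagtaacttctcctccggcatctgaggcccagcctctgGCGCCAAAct
Kif11: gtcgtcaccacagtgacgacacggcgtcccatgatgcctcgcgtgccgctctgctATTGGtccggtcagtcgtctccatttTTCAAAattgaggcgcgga
Kif20b: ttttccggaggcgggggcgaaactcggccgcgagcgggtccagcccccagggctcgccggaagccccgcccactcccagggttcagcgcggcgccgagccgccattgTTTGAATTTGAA
Kif5c: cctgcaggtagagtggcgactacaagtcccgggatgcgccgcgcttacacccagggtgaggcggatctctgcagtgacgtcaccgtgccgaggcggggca
Kif21a: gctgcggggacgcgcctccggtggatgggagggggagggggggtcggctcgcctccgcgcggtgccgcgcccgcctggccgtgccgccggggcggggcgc

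*Kif23* and *Kif11* carried a CCAAT box, in reverse, shortly before a match to the homology region. In *Kif15* an E2F word ran directly into a match to the homology region, and in *Kif18a* an E2F word stood alone, the single mitotic gene with a window but without the letters of the homology region. *Kif20b* held 2 matches to the homology region side by side just after the start. The stretches of *Kif5c* and *Kif21a* held none of these words. Of uncalled mitotic genes not shown, *Kif14*, *Kif18b*, *Kif22*, *Kifc1* and *Kifc5b* held some near the start. *Kif2c* held matches to the homology region only farther upstream, beginning at bases -234 and -103 from the start. A match is a description of letters and says nothing of which factor binds there. The homology region was found in mitotic genes that rose (*Kif23*, *Kif15*, *Kif4*) and in mitotic genes with log2 fold changes near 0 (*Kif14* at -0.021 and *Kif22* at -0.085), so that its letters did not separate called from uncalled members.

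*Kif23* encodes the motor of centralspindlin, the complex that bundles midzone microtubules and marks where a cell will divide. It is at chromosome 9, 61915905 to 61946774, on the minus strand of GRCm38. It stood at 83.3, 152, 179 and 198 CPM in wild-type replicates 1 to 4 and at 81.9, 69.2 and 75.7 CPM in null replicates 1 to 3. Replicate 1 was the lowest wild-type library and lay barely above the highest null library, whereas the other three wild-type libraries were far above all null libraries. The groups did not overlap. *Kif23* rose by a log2 fold change of 1.02 ± 0.24 (SE), or 2.02-fold, with an adjusted p of 0.030 by edgeR's quasi-likelihood test. This was the largest change among the kinesin genes in either direction.

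*Kif15*, at chromosome 9, 122951046 to 123018733, encodes a spindle motor that works beside KIF11 to hold the spindle poles apart. Its level was 70.4, 125, 117 and 112 CPM in wild-type replicates 1 to 4 and 67.2, 51.8 and 61.8 CPM in the null libraries. The same wild-type library was again the lowest, close to null replicate 1, and the groups did not overlap. *Kif15* rose by a log2 fold change of 0.81 ± 0.18 (SE), with an adjusted p of 0.024 by edgeR's quasi-likelihood test.

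*Kif18a*, at chromosome 2, 109280738 to 109341747, encodes a motor that moves to the plus ends of kinetochore microtubules and damps the swings of chromosomes at the metaphase plate. Wild-type replicates 1 to 4 held 43.8, 69.3, 73.6 and 81.0 CPM and null replicates 1 to 3 held 44.3, 34.6 and 42.6 CPM. Here the groups overlapped, since wild-type replicate 1 was below null replicate 1. *Kif18a*, whose promoter stretch above held an E2F word and no homology region, rose by a log2 fold change of 0.72 ± 0.19 (SE), with an adjusted p of 0.039 by edgeR's quasi-likelihood test.

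*Kif4*, at chromosome X, 100625737 to 100727214, encodes a chromokinesin that binds chromosome arms and limits the length of the midzone. It was measured at 50.2, 60.8, 64.0 and 73.0 CPM in wild-type replicates 1 to 4 and at 45.04, 34.2 and 40.5 CPM in the null libraries. All wild-type libraries were above all null libraries, and replicate 1 was once more the lowest of them. *Kif4* rose by a log2 fold change of 0.64 ± 0.14 (SE), with an adjusted p of 0.023 by edgeR's quasi-likelihood test. All 4 of these genes were also called without wild-type replicate 1 and without null replicate 1, and in none of the other five fits that left out a library, in which their adjusted p reached at most 0.084 for *Kif15*, 0.12 for *Kif18a*, 0.098 for *Kif23* and 0.077 for *Kif4*.

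**Figure D2:**
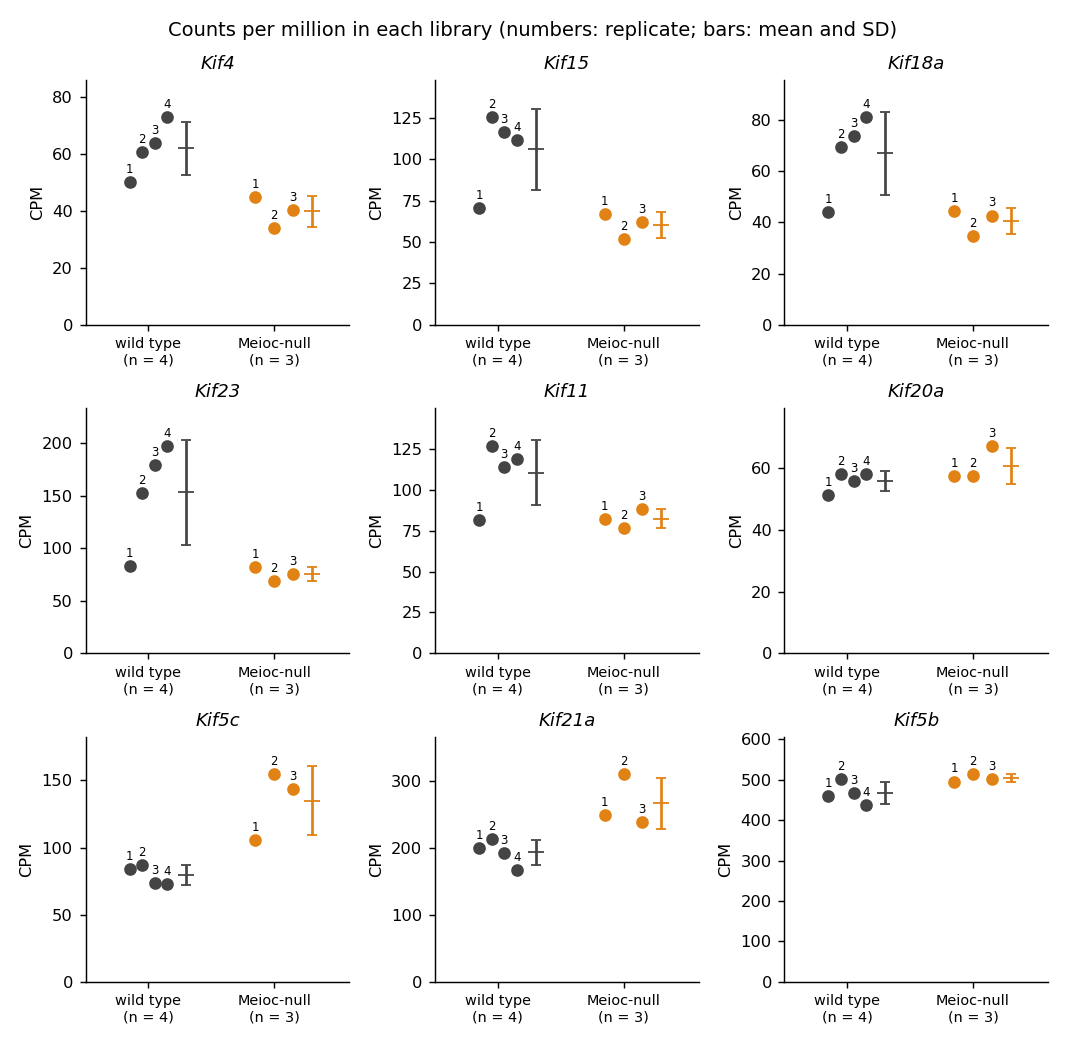
CPM (y axis) of the 6 called genes and of *Kif11*, *Kif20a* and *Kif5b* in each library, with points numbered by replicate and bars for the mean and SD of 4 wild-type and 3 *Meioc*-null libraries. For *Kif23*, wild-type replicate 1 lies at 83.3 CPM beside the null libraries, whereas *Kif20a* overlaps between the groups.

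The other 9 mitotic genes did not pass the test, and their fitted log2 fold changes ran from -0.16 to 0.42. *Kif11*, the most abundant of them by TPM after *Kif20b*, encodes the tetrameric motor that slides antiparallel microtubules to separate the poles. It stood at 81.8, 127, 114 and 119 CPM in wild-type replicates 1 to 4 and at 82.1, 76.8 and 88.2 CPM in the null libraries. Replicate 1 alone brought the wild-type values into the null range. The fitted log2 fold change of *Kif11* was 0.42 ± 0.14 (SE), with an adjusted p of 0.076 by edgeR's quasi-likelihood test, which was 0.0048 without wild-type replicate 1 and 0.035 by DESeq2 on all libraries. *Kif20b*, which acts in the completion of cytokinesis, stood at 91.7, 127, 115 and 116 CPM in wild-type replicates 1 to 4 and at 84.2, 91.3 and 105 CPM in the null libraries. Its groups overlapped through wild-type replicate 1 only, and its log2 fold change of 0.26 ± 0.12 (SE) had an adjusted p of 0.17 by edgeR's quasi-likelihood test.

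The remaining genes of this class were split, and those named here were chosen after their values were seen. *Kifc1*, a minus-end motor that focuses spindle poles, had no overlap between groups (8.71 to 11.1 against 6.93 to 7.72 CPM) and a log2 fold change of 0.42, with an adjusted p of 0.071 by edgeR's quasi-likelihood test. It shares 58.0% of its 31-base words with its near copy *Kifc5b*, at a log2 fold change of -0.16, so that the division of reads between them is uncertain. *Kif18b* and *Kif2c*, which shorten astral and centromeric microtubules, had log2 fold changes of 0.31 and 0.27. *Kif20a*, which brings the chromosomal passenger complex to the midzone, *Kif22*, a chromokinesin that pushes chromosome arms outwards, and *Kif14*, which acts at the midbody, had log2 fold changes of -0.12, -0.085 and -0.021, each smaller than 1.5 times its standard error. Fitted values within the class thus lay on both sides of 0.

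Ratios of counts within a library need no scaling between libraries. Those given here were chosen after the values were seen and are a description only. An exact permutation test of 4 against 3 libraries cannot give a p under 0.0571, so no result is read from one. *Kif23* counts were 1.63 to 3.40 times those of *Kif20a* in wild type and 1.12 to 1.43 times in the null. Against *Racgap1*, the partner of KIF23 within centralspindlin, the *Kif23* ratio was 0.726 to 1.71 in wild type and 0.588 to 0.656 in the null. *Racgap1* itself had a log2 fold change of -0.0071. The ratio of the chromokinesins *Kif4* and *Kif22* was 3.34 to 3.91 in wild type and 1.98 to 2.40 in the null, that of *Kif15* to *Kif11* was 0.860 to 1.02 against 0.675 to 0.818, and that of *Kif18a* to *Kif18b* was 4.28 to 5.75 against 3.03 to 4.23. None of these 5 ratios overlapped between the groups, and in each of them wild-type replicate 1 had the lowest wild-type value. The ratio of *Kifc1* to its near copy *Kifc5b* was 1.50 to 2.42 in wild type and 1.10 to 1.35 in the null. There wild-type replicate 1 had the highest value.

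*Kif5c* was the kinesin gene that fell most. It lies at chromosome 2, 49619298 to 49774778, and encodes a heavy chain of conventional kinesin known mainly from neurons. Its level was 84.3, 87.2, 73.2 and 72.9 CPM in wild-type replicates 1 to 4 and 106, 155 and 144 CPM in null replicates 1 to 3. Every null library was above every wild-type library, null replicate 1 being the closest to them. *Kif5c* fell by 0.76 ± 0.13 (SE) on the log2 scale, with an adjusted p of 0.013 by edgeR's quasi-likelihood test, and was 1.70-fold higher in the null. It was called in 6 of 7 fits that left out a library and was not called without null replicate 3, where its adjusted p was 0.060.

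*Kif21a*, at chromosome 15, 90933276 to 91049948, encodes a motor that restrains microtubule growth at the cell cortex. It stood at 201, 213, 193 and 168 CPM in wild-type replicates 1 to 4 and at 249.9, 311 and 239.8 CPM in the null libraries. The groups did not overlap, and null replicate 2 was the highest. Relative to its close relative *Kif21b*, however, *Kif21a* counts overlapped, at 6.48 to 9.22 in wild type and 8.73 to 10.2 in the null. *Kif21a* fell by 0.46 ± 0.11 (SE) on the log2 scale, with an adjusted p of 0.031 by edgeR's quasi-likelihood test. It was called in 2 of 7 fits that left out a library, namely wild-type replicate 1 or null replicate 1, and its adjusted p was at most 0.087 in the others. Its counts were the sum of 5 listed transcripts whose division varied between libraries of one genotype, transcript Kif21a-201 holding from 0.599 to 17.3 TPM in wild type and from 0.269 to 22.5 TPM in the null, so that no single isoform is compared here.

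The other 12 transport genes were not called, and 9 of them had negative fold changes. *Kif5b*, the conventional kinesin heavy chain that most cells use, stood at 459, 503, 467 and 437 CPM in wild-type replicates 1 to 4 and at 496, 514 and 502 CPM in the null libraries. These values overlapped through wild-type replicate 2, and the log2 fold change of -0.11 ± 0.071 (SE) had an adjusted p of 0.32 by edgeR's quasi-likelihood test. Relative to *Kif5b*, *Kif5c* counts were 0.157 to 0.184 in wild type and 0.213 to 0.301 in the null, without overlap. *Kif5a*, the third heavy chain, also known from neurons, had a log2 fold change of -0.58 ± 0.26 (SE) and an adjusted p of 0.16 by edgeR's quasi-likelihood test, with wild-type replicate 1 at 34.4 CPM against 15.0 to 17.8 CPM in the other wild-type libraries and 28.7 to 34.9 CPM in the null. Without that library *Kif5a* was called lower, with a log2 fold change of -0.93 and an adjusted p of 0.0021 by edgeR's quasi-likelihood test.

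*Kif1b*, which carries mitochondria and vesicles along axons, went the other way, at 219, 264, 286 and 292 CPM in wild-type replicates 1 to 4 and at 202, 219.6 and 211 CPM in the null. Wild-type replicate 1 lay within the null range and the rest above it. The log2 fold change of *Kif1b* was 0.33 ± 0.10 (SE), with an adjusted p of 0.068 by edgeR's quasi-likelihood test and of 0.033 by DESeq2. *Kif16b*, a carrier of early endosomes, and *Kif13b* were the remaining transport genes with positive fold changes, at 0.28 and 0.18. *Kif13a* (38.9 to 40.8 against 42.7 to 47.5 CPM) and the minus-end motor *Kifc2* (4.81 to 7.72 against 8.31 to 9.49 CPM) did not overlap between groups, at log2 fold changes of -0.20 and -0.43, yet their adjusted p were 0.12 and 0.14 by edgeR's quasi-likelihood test. The remaining *Kif1a*, *Kif1c*, *Kif3c*, *Kif21b* and *Kifc3* had log2 fold changes from -0.31 to -0.17 with overlapping groups. Over the whole family, 9 of 38 genes did not overlap between groups, beside 26.2% of all genes tested.

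None of the 8 ciliary genes was called by edgeR's quasi-likelihood test or by DESeq2, and 3 had an unadjusted p under 0.05 in the former. Of all 13630 genes, 2373 higher and 1760 lower in wild type had such a p. *Kif3a* and *Kif3b* encode the paired motor subunits of kinesin-II, which drives cargo towards the ciliary tip. *Kif3a* stood at 83.5, 77.6, 77.3 and 78.0 CPM in wild-type replicates 1 to 4 and at 80.3, 89.4 and 86.9 CPM in the null libraries. *Kif3b* stood at 92.8, 86.8, 88.9 and 85.7 CPM in wild type and at 99.5, 90.2 and 94.1 CPM in the null. Both overlapped through wild-type replicate 1, the highest wild-type library for each. Their log2 fold changes were -0.11 ± 0.074 and -0.095 ± 0.073 (SE), with adjusted p of 0.33 and 0.40 by edgeR's quasi-likelihood test. The ratio of *Kif3a* to *Kif3b* counts ranged from 0.870 to 0.910 in wild type and from 0.807 to 0.991 in the null.

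*Kif27*, a relative of *Kif7* linked to motile cilia, stood at 20.8, 26.2, 24.9 and 30.1 CPM in wild-type replicates 1 to 4 and at 19.96, 28.9 and 27.8 CPM in the null, with a log2 fold change of 0.0023 ± 0.16 (SE). Its groups covered almost the same range. Those with an unadjusted p under 0.05 are named here after their values were seen. *Kif24*, which trims centriolar microtubules and holds back ciliation, had a log2 fold change of 0.35 ± 0.13 (SE), *Kif6* one of -0.48 ± 0.17 and *Kif7*, which organises the ciliary tip in Hedgehog signalling, one of -0.35 ± 0.13. Their adjusted p were 0.10, 0.098 and 0.12 by edgeR's quasi-likelihood test. *Kif9* and *Kif17*, at 0.36 and -0.46, had standard errors of 0.24 and 0.34 and levels under 10 CPM in every library.

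Of the 3 remaining genes, *Kif2a* encodes a microtubule depolymerase used both at spindle poles and in neurons. It stood at 60.4, 59.3, 57.1 and 62.9 CPM in wild-type replicates 1 to 4 and at 43.7, 71.4 and 52.0 CPM in the null. *Kif1bp*, the binding partner, stood at 53.3, 54.9, 54.2 and 56.6 CPM in wild type and at 52.1, 48.3 and 52.6 CPM in the null. *Kif26a*, a family member that lacks motor activity and acts in signalling, had the largest standard error of the family, at 22.9, 30.9, 57.1 and 36.0 CPM in wild type and at 29.2, 58.0 and 21.1 CPM in the null. The log2 fold changes of *Kif2a*, *Kif1bp* and *Kif26a* were 0.11 ± 0.14, 0.10 ± 0.072 and 0.036 ± 0.36 (SE), with adjusted p of 0.64, 0.37 and 0.96 by edgeR's quasi-likelihood test.

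The 5 genes below the filter were *Kif2b*, *Kif12*, *Kif28*, *Kif26b* and *Kif19a*. *Kif2b*, a depolymerase of the spindle, had 0 counts in each of 7 libraries, which allows at most 0.151 to 0.236 CPM per library by counting error. *Kif12* had at most 1 count and *Kif28* at most 9 counts in a library. *Kif26b* had 10 to 29 counts. *Kif19a*, which sets ciliary length, had 16 to 46 counts in wild-type libraries and 40 to 58 in the null, and reached a mean of 0.606 ± 0.22 TPM (SD, n = 4) in wild type and 1.17 ± 0.53 TPM (SD, n = 3) in the null.

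**Figure D3:**
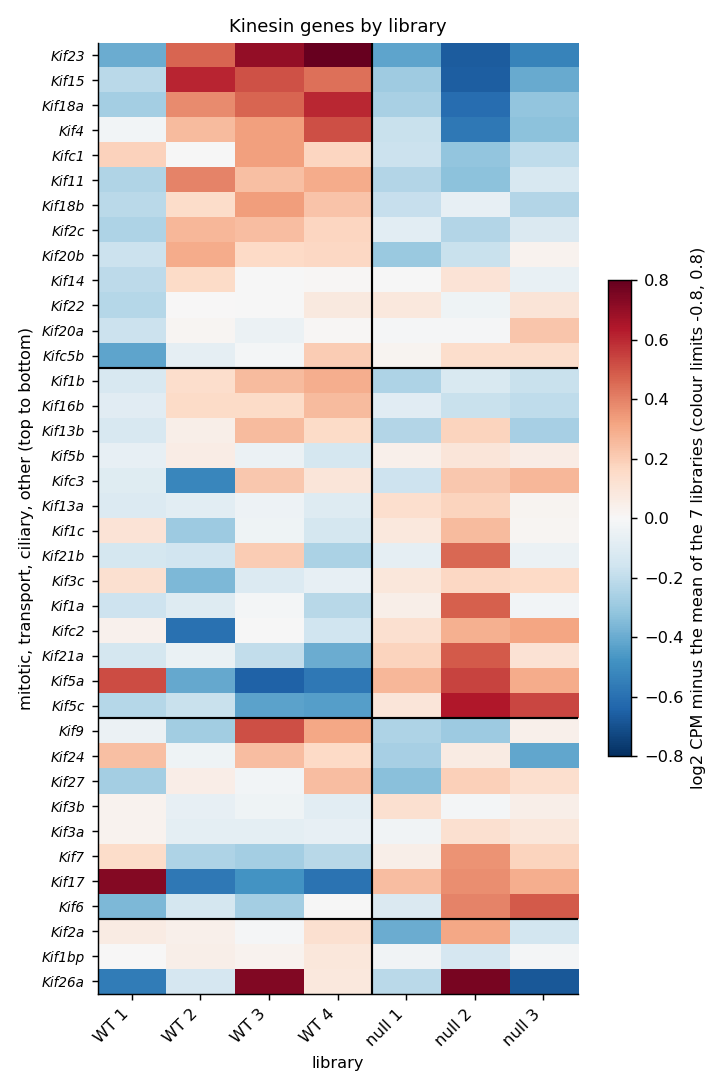
Log2 CPM of each kinesin gene in each library minus its mean over the 7 libraries (colour, limits -0.8 and 0.8), with genes in rows by class and libraries in columns. Wild-type replicate 1 (first column) is on the low side for *Kif23*, *Kif15* and *Kif18a*, as the null libraries are, and on the high side for *Kif17* and *Kif5a*.

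Wild-type replicate 1 stood apart from the other wild-type libraries in the mitotic class and in single genes of the other classes, as shown by the map of relative levels. Over the mitotic class, the median log2 CPM relative to each gene's mean was -0.22 in that library, 0.25, 0.24 and 0.20 in wild-type replicates 2 to 4, and -0.18, -0.24 and -0.13 in null replicates 1 to 3. Over the transport class it was -0.10 in that library, among the -0.13, -0.025 and -0.14 of wild-type replicates 2 to 4. The null libraries were at 0.067, 0.23 and 0.041. Over the ciliary class it was 0.029, against -0.11, -0.057 and -0.034, with the null at -0.072, 0.16 and 0.11. In 12 kinesin genes the other three wild-type libraries were all above the null, and replicate 1 was also above it in 5 of them. In 11 genes the other three were all below the null, and replicate 1 was also below it in 4. The same counts were not made over all genes, so nothing particular to kinesins is read from them. The leptotene and zygotene markers showed the same order in part, since replicate 1 had the lowest wild-type sum, 1039 CPM, yet stayed above every null library. Its 12537852 counts were the fewest of any library. Without it, 14 of 38 kinesin genes were called, 9 higher and 5 lower in wild type, beside 2172 of 13630 genes in all, and the additional ones were *Kif11*, *Kif20b*, *Kif2c*, *Kif1b* and *Kif16b*, higher, and *Kif5a*, *Kif7* and *Kif17*, lower. Over all genes tested, its log2 CPM correlated at 0.981, 0.981 and 0.977 with wild-type replicates 2 to 4. With null replicates 1 to 3 the correlations were 0.981, 0.966 and 0.972. What set this library apart was not tested.

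Levels are compared between genes in TPM. *Kif5b* ranked first in both genotypes, at 162 ± 12 TPM (SD, n = 4) in wild type and 210.2 ± 21 TPM (SD, n = 3) in the null. *Kif23* was the second most abundant kinesin transcript in wild type, at 82.5 ± 24 TPM, and the fifth in the null, at 48.8 ± 2.4 TPM. In wild type it was followed by *Kif3a* (56.9 ± 4.5 TPM), *Kif20b* (54.3 ± 4.6), *Kif21a* (53.2 ± 6.8), *Kif15* (50.2 ± 9.3), *Kif18a* (48.8 ± 9.7), *Kif1b* (48.1 ± 4.8) and *Kif11* (47.8 ± 6.3), neighbours that did not differ beyond their SD. In the null the order was *Kif5b*, *Kif21a* (87.4 ± 20), *Kif3a* (74.7 ± 9.5), *Kif20b* (54.4 ± 6.8) and *Kif23*, and *Kif5c* moved from rank 18 (17.4 ± 2.2 TPM) to rank 10 (35.3 ± 8.7 TPM). At the low end lay *Kif17* in wild type (2.18 ± 1.3 TPM) and *Kif9* in the null (2.56 ± 0.31 TPM).

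**Figure D4:**
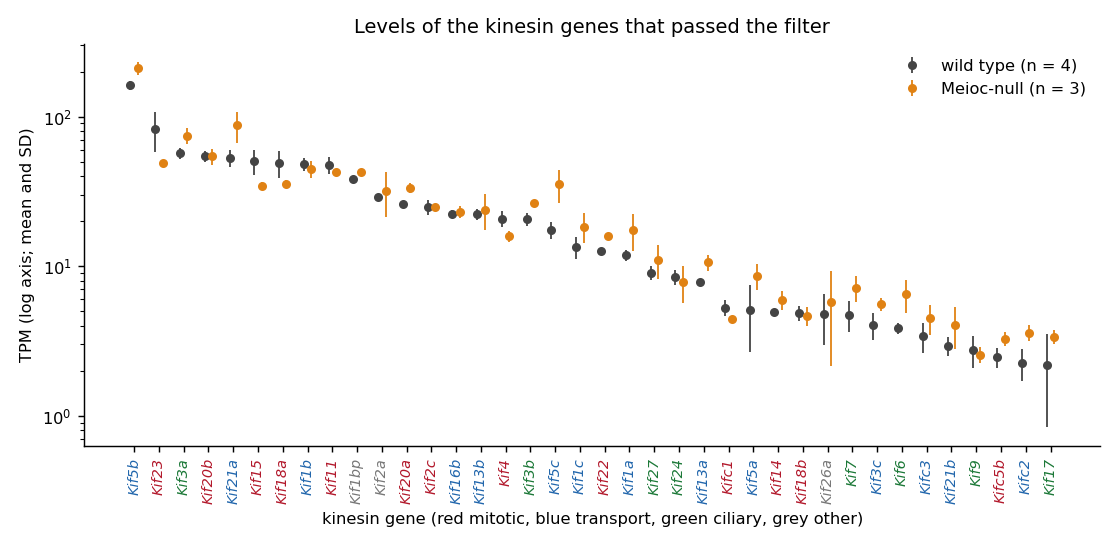
TPM (log y axis) of the 38 kinesin genes, ordered by their wild-type level, with points for the mean and bars for the SD of 4 wild-type and 3 *Meioc*-null libraries. *Kif5b* leads at 162 and 210.2 TPM, and *Kif5c* moves from rank 18 in wild type to rank 10 in the null.

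Summed over classes, mitotic kinesins held 303, 402, 407 and 429 TPM in wild-type replicates 1 to 4 and 319, 328 and 326 TPM in the null libraries. Wild-type replicate 1 was the lowest of all 7 libraries, and the other three wild-type libraries were above the null. Transport kinesins held 400.4, 377, 374 and 355 TPM in wild type and 453, 587 and 453 TPM in the null. Ciliary kinesins held 123, 100.5, 107 and 107 TPM against 126, 161 and 134 TPM. For both classes every null library was above every wild-type library in TPM. In CPM, over the genes past the filter, the ciliary sums overlapped, at 253 to 277 in wild type and 265 to 291 in the null. The transport sums were barely apart, at 1419 to 1512.9 against 1513.6 to 1751 CPM. The mitotic sum of wild-type replicate 1, 569 CPM, lay within the null range of 521 to 587 CPM. As a share of kinesin TPM, the mitotic class took 33.6% to 44.5% in wild type and 27.9% to 33.0% in the null, and the transport class 36.8% to 44.4% and 45.9% to 50.03%. These shares add up to a fixed total, so a higher share of one class lowers the others. TPM differs from CPM here in its zero point as well, since the median log2 fold change of all genes was -0.23 in log2(TPM + 1) and -0.0065 in the counts. The mitotic median was 0.052 in log2(TPM + 1), or 0.28 relative to all genes, and that of the transport and ciliary genes together was -0.39, or -0.16 relative to all genes. On that scale limma called 8 kinesin genes, *Kif23* and *Kif15* as higher and *Kif5c*, *Kif21a*, *Kif5b*, *Kif3a*, *Kif6* and *Kif20a* as lower in wild type, while *Kif4* and *Kif18a* were not called. These calls stand beside 2522 of all 13630 genes called on that scale, of which 17.4% were higher in wild type.

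**Figure D5:**
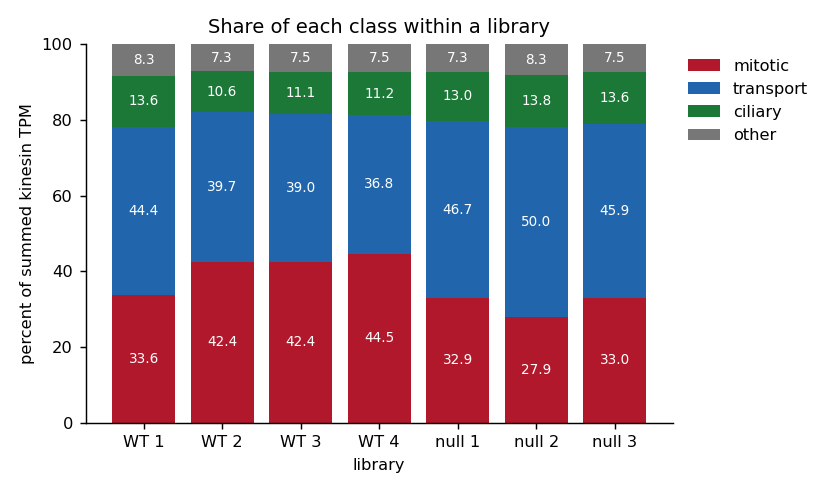
Percent of summed kinesin TPM (y axis, from 0) held by each class in each library. The mitotic share lies between 42.4% and 44.5% in wild-type replicates 2 to 4, at 33.6% in wild-type replicate 1 and between 27.9% and 33.0% in the *Meioc*-null libraries.

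Genes that work with kinesins were grouped in lists by their known function. Of 20 spindle and midzone genes, 4 were called higher and 1 lower, with a median log2 fold change of 0.33, beside 7.77% and 3.33% of all genes called higher and lower. *Bub1*, a kinase of the spindle checkpoint, stood at 115, 237, 276 and 324 CPM in wild-type replicates 1 to 4 and at 107, 89.6 and 100.2 CPM in the null, without overlap, and rose by a log2 fold change of 1.26 ± 0.28 (SE), with an adjusted p of 0.024 by edgeR's quasi-likelihood test. The others called higher were *Cep55*, *Ect2* and *Tpx2*, at 0.86, 0.52 and 0.44. *Aurkb*, the kinase of the chromosomal passenger complex, stood at 5.83, 4.95, 3.97 and 6.49 CPM in wild type and at 8.73, 9.03 and 8.89 CPM in the null, and fell by 0.74 ± 0.18 (SE) on the log2 scale, with an adjusted p of 0.030 by edgeR's quasi-likelihood test. The motor *Cenpe*, a kinesin whose symbol falls outside the rule, had a log2 fold change of 0.28, with an adjusted p of 0.11 by edgeR's quasi-likelihood test. The list's 5 calls became 12 without wild-type replicate 1, 2 without wild-type replicate 4, and 0 without wild-type replicate 2 or 3 or null replicate 2 or 3.

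Among cargo partners of kinesins, 2 of 9 genes tested were called higher and none lower, with a median log2 fold change of 0.19, beside 7.77% of all genes called higher and 11.1% called either way. They were *Mapk8ip3*, an adaptor of conventional kinesin, at 91.3, 103, 108 and 103 CPM in wild-type replicates 1 to 4 and 74.4, 86.5 and 76.6 CPM in the null, and *Kifap3*, the cargo-binding subunit of kinesin-II. *Mapk8ip3* rose by 0.36 ± 0.089 (SE) and *Kifap3* by 0.34 ± 0.083 (SE) on the log2 scale, with adjusted p of 0.033 and 0.031 by edgeR's quasi-likelihood test. Of the kinesin light chains, *Klc1* and *Klc2* did not overlap between the groups, at log2 fold changes of 0.19 and 0.27, and were not called. The count of calls in this list was 3 without wild-type replicate 1, 1 without null replicate 1 or 2, and 0 without any other single library.

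In the list of intraflagellar transport, 2 of 22 genes were called higher, *Ift80* and *Ttc30a1*, and none lower, with a median of 0.11. The 9.09% of this list called is near the 7.77% of all genes called higher and the 11.1% called either way. *Ift80*, a subunit of the anterograde train, stood at 72.9, 87.3, 88.0 and 90.9 CPM in wild-type replicates 1 to 4 and at 59.8, 51.5 and 59.4 CPM in the null, and rose by a log2 fold change of 0.57 ± 0.099 (SE), with an adjusted p of 0.013 by edgeR's quasi-likelihood test. Another list held cytoplasmic dynein, the motor of the opposite direction, with dynactin and other dynein partners. It had 0 of 24 genes called higher and 1 lower, with a median of 0.0035. The 4.17% of this list called is near the 3.33% of all genes called lower and below the 11.1% called either way. By an unadjusted p under 0.05 in edgeR, 3 genes of this list were higher, among them the dynactin genes *Dctn3* and *Dctn5*, and 4 lower. By the same measure, 2373 of all 13630 genes were higher and 1760 lower. The gene of the dynein list called lower was *Wdr60*, an intermediate chain of the ciliary dynein. It stood at 25.8, 28.2, 27.3 and 25.2 CPM in wild type and at 31.3, 34.5 and 37.3 CPM in the null. *Wdr60* fell by 0.37 ± 0.095 (SE) on the log2 scale, with an adjusted p of 0.037 by edgeR's quasi-likelihood test. Calls in the intraflagellar list numbered 3 without wild-type or null replicate 1, 1 without wild-type replicate 2, 3 or 4 or null replicate 2, and 0 without null replicate 3. In the dynein list they numbered 3 without wild-type replicate 1, 1 without null replicate 1 and 0 without any other single library.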

How the data were processed

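RNA-seq libraries were strand-specific, made after ribosomal RNA depletion, and read as single ends. The authors trimmed reads with cutadapt 1.8 and ran kallisto 0.44.0 with bias correction on GENCODE Basic vM15 transcripts, and deposited, per protein-coding transcript, its estimated count, not normalized across libraries, a TPM renormalized over protein-coding transcripts, and its length and effective length. kallisto divides reads shared by several transcripts by estimation. Per the labels, each library is 1 pup, so p-values measure the spread between pups.

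From these files, values were added up per gene through Ensembl identifiers of GENCODE vM21 on GRCm38. Of 43139 transcripts, 119 were not matched (0.247% to 0.282% of a library's counts) and were left out. Counts were rounded, scaled by TMM and tested in edgeR 4.0.16 (R 4.3.3) by its quasi-likelihood test with genotype as the only term, with Benjamini-Hochberg adjustment over the 13630 genes past the filter. The authors' gene test was DESeq2, used here as an alternative (DESeq2 1.42.0). The other alternatives were RLE size factors, library size only, no TPM filter, filterByExpr, limma 3.58.1 on log2(TPM + 1) and log2(TPM + 0.1), a replicate block, fits without each library, and counting *Kif2a* and *Kif24* as mitotic. CPM are counts scaled to the TMM-adjusted library size. The fit was tested on simulated counts. No 2 libraries were duplicates: their squared count differences were at least 7.91 times the counting noise. Floors cover counting error only, since reads carried no molecular identifiers. Near-identical genes were checked by shared 31-base words.

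Values in every library are given for called kinesin genes and for the 3 of highest mean TPM in each class, and one gene per direction for partner lists. Further genes were named with their values in view. The members, classes, partner lists and motifs were chosen with earlier results of these data known. *Kifbp* in the cargo list is the gene *Kif1bp* and was not tested again there.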

Additional observations from a re-analysis of the deposited data

Results flagged for a closer look

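Among the 4 wild-type libraries, 1 library stood far from the other three by Dixon's criterion in 4 of the 38 kinesin genes, and in all 4 it was replicate 1. Chance alone flags about 1 in 20 groups. *Kif17* was at 9.69 CPM in that library, against 3.57 to 3.91 CPM in the others. *Kif5a* was at 34.4 CPM, against 15.0 to 17.8 CPM. *Kif7* was at 22.1 CPM, against 16.4 to 17.1 CPM. *Kif3a* was at 83.5 CPM, against 77.3 to 78.0 CPM.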

How the results depend on the processing

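With 4 and 3 pups, calls rested on few libraries. Over fits without one library, kinesin calls ranged from 0 to 14, mitotic calls higher in wild type from 0 to 7, transport and ciliary calls higher from 0 to 2 and lower from 0 to 5, and calls of cargo partners from 0 to 3, spindle partners from 0 to 12, intraflagellar transport from 0 to 3 and dynein from 0 to 3. Same-numbered libraries of the genotypes were not treated as pairs in the main fit. Their deviations from the group means correlated at -0.012, -0.0892 and -0.168, and those of all pairs across genotypes at -0.168 to 0.165. With so few libraries these values cannot show whether pups were paired. With a replicate block, kinesin calls and calls in each class and partner list were 0 (10 kinesin genes had an unadjusted p under 0.05), and 109 genes were called in all. The share of all genes at such a p was not counted with the block. DESeq2 called 1 transport or ciliary gene higher, 4 cargo, 8 spindle, 4 intraflagellar and 4 dynein genes. Library size only gave 1 cargo, 1 intraflagellar and 4 dynein calls, and no TPM filter 1 intraflagellar call. Over all genes, DESeq2 called 2331 and library size only 1713 of 13630, and no TPM filter 1381 of 19310. By limma on log2(TPM + 1) and log2(TPM + 0.1), where the median of all genes was -0.23 and -0.25, mitotic calls were 2 higher and 1 lower, transport and ciliary calls 5 lower, cargo calls 1 and dynein calls 5. The mitotic median was 0.052 and 0.062 and the transport and ciliary median -0.39 and -0.43. Those limma fits called 2522 and 2506 of all 13630 genes. Only 17.4% and 17.7% of these calls were higher in wild type, against 70.0% in the counts and 47.5% with library size only. The causes of these shifts were not tested.

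Among the genes with values in every library, signs changed in 4, all uncalled. *Kif27* was at -0.0083 by DESeq2, -0.0076 with RLE, -0.076 with library size only, -0.24 and -0.26 by limma, -0.082 with the block and -0.15 to 0.099 without one library. *Kif1bp* was at -0.16 in both limma fits, *Kif2a* at -0.096 and -0.097 there and -0.040 to 0.33 without one library, and *Kif26a* at -0.050 with library size only, -0.14 and -0.16 by limma, and -0.26 to 0.55 without one library.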
